A study of Mus musculus with 15 samples.

Results

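Pcp2, Pcp4, Pcp4l1, Ppp1r17 and Gng13 are 5 genes grouped here for their link to Purkinje cells. These large GABAergic neurons carry the output of the cerebellar cortex. Pcp4l1 did not fall with the Purkinje cell markers in these data, as described below. The 5 genes were chosen by symbol, are 5 of the 24421 genes in the deposited count tables, and all 5 passed the filter on low counts. Their transcripts were measured by RNA sequencing of cerebella of FVB-strain mice, in 5 libraries for each of 3 genotypes. Mice of the first genotype, ATXN1[82Q]V591A;S602D, express human ATXN1 with an expanded glutamine tract that also carries 2 amino acid substitutions known to weaken its binding to the transcriptional repressor CIC. It is called the double-substitution form here. Mice of the second, ATXN1[82Q], express the expanded protein without those substitutions, and the third genotype is wild type, with no transgene. The Pcp2 promoter drives both transgenes, so their expression is aimed at Purkinje cells, and one of the genes described here is the source of that promoter. The labels give no age or sex and leave unsaid whether libraries are separate animals, and every p-value therefore reflects variation among libraries, which may be technical.

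Each of the 5 genes encodes a small signalling protein. Pcp2, also called L7, carries a GoLoco domain that binds inhibitory G-protein alpha subunits, and Gng13 is a G-protein gamma subunit also known from taste and olfactory cells. Pcp4, also called PEP-19, is a calmodulin-binding protein with an IQ motif, and Pcp4l1 is its close relative. Ppp1r17, also called G-substrate, inhibits protein phosphatases once cGMP-dependent protein kinase has phosphorylated it. In bulk tissue, fewer Purkinje cells and less RNA per Purkinje cell cannot be told apart, and no count table of this kind can show that a transcript is restricted to a cell type.

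Because the Pcp2 promoter drives the transgenes and ATXN1 binds CIC, promoter stretches that held a motif of interest are shown for Pcp2 and Pcp4. They come from RefSeq (GRCm38.p6), run 5′ to 3′ on the gene's strand and have the motif in capitals. Positions count from the RefSeq start of transcription, with -1 the base before it. The first stretch precedes the outermost Pcp2 start and holds AGGTCA, a half-site bound by ROR and other nuclear receptors, at position -12 (chr8:3625548-3625797, minus strand). The second lies before an inner Pcp2 start, with 3 bases past it, and holds TGAATGGA, an octamer bound by CIC, at position -5 (chr8:3625280-3625432, minus strand). The third precedes the Pcp4 start and holds TGACCT, which is AGGTCA read on the other strand, at position -164 (chr16:96467356-96467605, plus strand).
Pcp2, outermost start: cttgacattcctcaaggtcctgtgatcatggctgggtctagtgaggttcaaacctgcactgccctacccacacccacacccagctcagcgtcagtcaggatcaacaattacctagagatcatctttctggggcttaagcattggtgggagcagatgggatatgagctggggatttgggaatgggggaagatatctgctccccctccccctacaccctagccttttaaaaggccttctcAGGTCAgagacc
Pcp2, inner start: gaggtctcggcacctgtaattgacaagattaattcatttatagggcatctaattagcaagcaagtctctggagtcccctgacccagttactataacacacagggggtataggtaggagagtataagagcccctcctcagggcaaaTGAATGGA
Pcp4: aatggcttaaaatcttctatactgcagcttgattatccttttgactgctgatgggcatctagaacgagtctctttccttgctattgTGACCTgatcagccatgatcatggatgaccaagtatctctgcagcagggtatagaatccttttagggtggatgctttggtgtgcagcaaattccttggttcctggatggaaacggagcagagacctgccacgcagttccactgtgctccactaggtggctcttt
Exact matches on both strands were sought for TGAATGAA, TGAATGGA and AGGTCA in windows of 250 bases before to 50 bases after each start. Of all 32851 mouse windows in the table, TGAATGAA was found in 1.3%, TGAATGGA in 1.21% and AGGTCA in 16.3%. Of 4 overlapping Pcp2 windows, 3 held AGGTCA and 1 held TGAATGGA. The outermost window and the next share the same AGGTCA site, at positions -12 and -87 from their starts. The 1 window of Pcp4l1 and the 2 windows of Gng13 held none of the 3 motifs, and Ppp1r17 has no entry in the table. A match describes the letters and does not show a bound site.

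The libraries held 36467948 to 42818401 counts on genes, and single members had 1227 to 21641 counts per library. Levels are given as counts-per-million values (CPM) after TMM scaling, a normalisation for library composition. Xist, a transcript of female cells, ranged from 0.49 to 1468 CPM in double-substitution, 0.34 to 1328 CPM in ATXN1[82Q] and 0.19 to 1315 CPM in wild-type libraries. The libraries of a genotype therefore did not all come from a single animal. Whether each library is a separate animal remains unstated. Mouse Atxn1 averaged 83.9 CPM in double-substitution, 76.8 CPM in ATXN1[82Q] and 70.1 CPM in wild-type libraries and was not called in any comparison. Its log2 fold change with the double-substitution form against wild type was 0.26 (95% interval 0.10 to 0.41). Its counts in transgenic libraries may include reads from the human ATXN1 transgenes, which was not tested. A gene was called when its Benjamini-Hochberg adjusted p over the 15843 genes tested, from edgeR's quasi-likelihood test, was under 0.05.

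In ATXN1[82Q] cerebella 4 of the 5 genes, Gng13, Pcp4, Ppp1r17 and Pcp2, were called lower than in wild type, while Pcp4l1 was not called. Across all genes tested, 14.9% were called lower in this comparison. With the double-substitution form 3 of the 5, Gng13, Pcp4 and Ppp1r17, were called lower than in wild type by smaller amounts, where 1.2% of all genes were. Pcp2 was not called there. Against ATXN1[82Q], the same 4 genes that fell in ATXN1[82Q] were called higher with the double-substitution form, where 14.6% of all genes were. In each of these calls the libraries of the genotypes did not overlap. No overlap in the same direction was seen for 9.79%, 2.03% and 9.61% of all genes in these 3 comparisons, in the order given. The comparisons share their libraries in pairs and are not independent of each other.

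**Figure D1:**
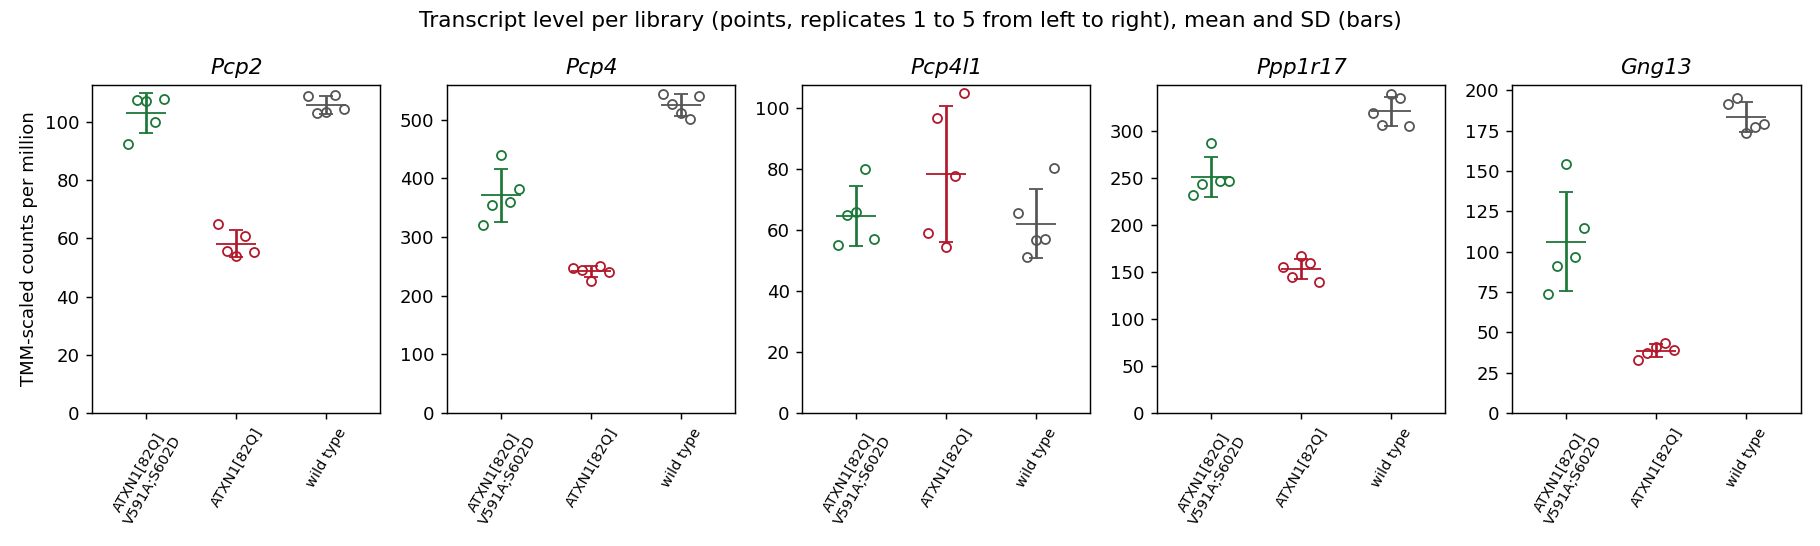
TMM-scaled CPM (vertical axes, from 0) of the 5 genes in each library, by genotype. Open circles are libraries 1 to 5 from left to right, and bars are the mean and SD of 5 libraries. Gng13 averaged 106 CPM in double-substitution, 38.5 CPM in ATXN1[82Q] and 184 CPM in wild-type libraries, while the 3 genotypes overlap for Pcp4l1.

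Among the G-protein regulators, Gng13 (chr17:25717171-25719406, plus strand, GRCm38) stood lowest relative to wild type. Its level was 74.0, 91.3, 154, 96.5 and 115 CPM in double-substitution libraries 1 to 5, 32.6, 37.3, 40.6, 43.2 and 38.9 CPM in ATXN1[82Q] libraries, and 192, 195, 174, 178 and 179 CPM in wild-type libraries. The 3 genotypes formed 3 separate ranges, with ATXN1[82Q] at the bottom and wild type at the top. Gng13 was 4.76-fold lower in ATXN1[82Q] than in wild type (log2 fold change -2.25, SE 0.14, adjusted p = 5.5e-09), the 14th lowest fold change of 15843. It was 1.73-fold lower than in wild type with the double-substitution form (log2 fold change -0.79, SE 0.13, adjusted p = 0.00444). Against ATXN1[82Q] it was 2.76-fold higher with the double-substitution form (log2 fold change 1.46, SE 0.14, adjusted p = 2.49e-06). Its spread was widest in the double-substitution libraries, with a coefficient of variation of 28.9%, against 10.3% in ATXN1[82Q] and 5.15% in wild-type libraries.

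Pcp2 (chr8:3623371-3625545, minus strand), the other G-protein regulator, differed from Gng13 with the double-substitution form. It stood at 92.4, 108, 107, 100.1 and 108 CPM in double-substitution libraries 1 to 5, at 64.9, 55.6, 53.8, 60.9 and 55.3 CPM in ATXN1[82Q] libraries, and at 109, 103, 103, 109 and 105 CPM in wild-type libraries. The ATXN1[82Q] libraries lay below all others, and the double-substitution and wild-type libraries overlapped. Pcp2 was 1.82-fold lower in ATXN1[82Q] than in wild type (log2 fold change -0.87, SE 0.05, adjusted p = 3.32e-09) and 1.77-fold higher with the double-substitution form than in ATXN1[82Q] (log2 fold change 0.83, adjusted p = 7.03e-08). Against wild type the double-substitution form gave a log2 fold change of -0.04 (95% interval -0.15 to 0.07, adjusted p = 0.829). The labels do not say whether the transgenes carry transcribed Pcp2 sequence, so the Pcp2 counts of transgenic libraries may include reads from the transgene, which was not tested.

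Pcp4 (chr16:96467606-96525793, plus strand), the calmodulin-binding protein, had the highest level of the 5. Its level was 319.7, 354, 440.5, 359.7 and 382 CPM in double-substitution libraries 1 to 5, 248, 243, 225, 251 and 240.3 CPM in ATXN1[82Q] libraries, and 544, 527, 512, 502 and 541 CPM in wild-type libraries. As for Gng13, the 3 genotypes did not overlap. Pcp4 was 2.18-fold lower in ATXN1[82Q] than in wild type (log2 fold change -1.12, SE 0.06, adjusted p = 1.79e-09). It was 1.42-fold lower with the double-substitution form than in wild type (log2 fold change -0.50, SE 0.06, adjusted p = 0.00101) and 1.54-fold higher than in ATXN1[82Q] (log2 fold change 0.62, adjusted p = 4.54e-06).

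Ppp1r17 (chr6:56017497-56032689, plus strand), the phosphatase inhibitor, followed the same order of genotypes. It stood at 231, 243, 287, 247 and 246 CPM in double-substitution libraries 1 to 5, at 155, 144, 167, 159 and 139.6 CPM in ATXN1[82Q] libraries, and at 319, 306, 339, 334 and 305 CPM in wild-type libraries. No library of 1 genotype reached the range of another. Ppp1r17 was 2.1-fold lower in ATXN1[82Q] than in wild type (log2 fold change -1.07, SE 0.06, adjusted p = 1.36e-09). It was 1.28-fold lower with the double-substitution form than in wild type (log2 fold change -0.35, SE 0.06, adjusted p = 0.00304) and 1.64-fold higher than in ATXN1[82Q] (log2 fold change 0.71, adjusted p = 4.23e-07).

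Pcp4l1 (chr1:171173262-171196268, minus strand), the relative of Pcp4, did not follow the other 4. Its level was 55.2, 64.8, 65.9, 80.0 and 57.1 CPM in double-substitution libraries 1 to 5, 58.9, 96.8, 54.4, 77.7 and 105 CPM in ATXN1[82Q] libraries, and 65.7, 51.2, 56.8, 57.1 and 80.3 CPM in wild-type libraries. The ranges of the 3 genotypes overlapped, and libraries of 1 genotype differed up to 1.93-fold. The log2 fold change was 0.34 in ATXN1[82Q] against wild type (95% interval -0.01 to 0.69, adjusted p = 0.133). It was 0.05 with the double-substitution form against wild type (95% interval -0.30 to 0.41, adjusted p = 0.935) and -0.28 against ATXN1[82Q] (95% interval -0.63 to 0.07, adjusted p = 0.213). These intervals still allow changes in either direction.

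**Figure D2:**
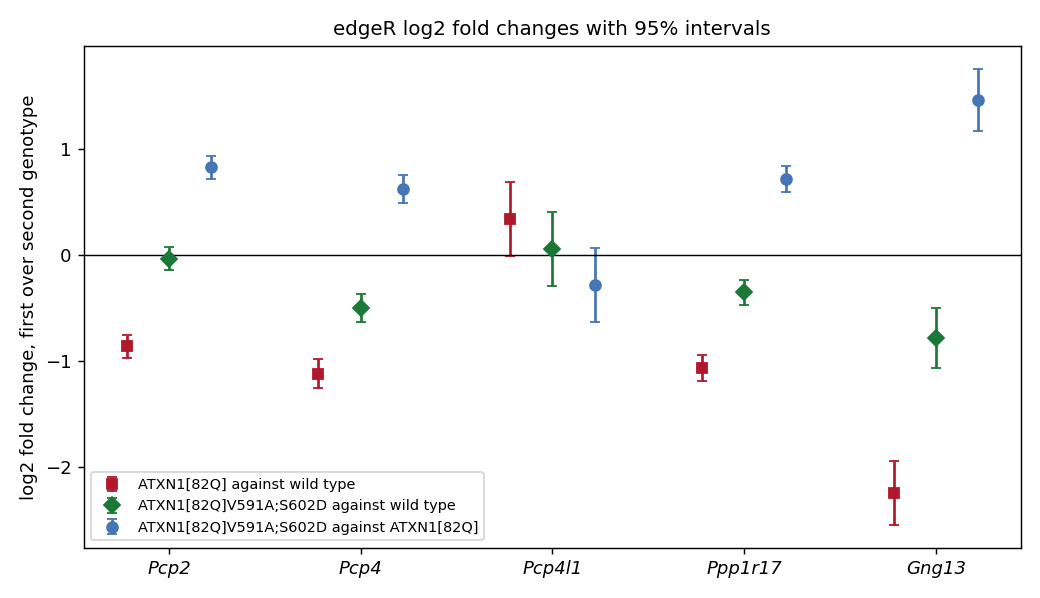
Log2 fold changes of the 5 genes (vertical axis) from edgeR in the 3 comparisons, with 95% intervals as bars and the first-named genotype over the second. The intervals of Gng13, Pcp4 and Ppp1r17 exclude 0 in all 3 comparisons, that of Pcp2 spans 0 for the double-substitution form against wild type, and those of Pcp4l1 span 0 throughout.

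The exons of 3 members overlap another gene in GENCODE M21, and the strand setting of the deposited counts is not given in the sources used here. Pet100, on the opposite strand, overlaps 51.5% of the Pcp2 exons. Chtf18, also opposite, overlaps 51.6% of the Gng13 exons, and Igsf5, on the same strand, overlaps 23.7% of the Pcp4 exons. Pet100 averaged 24.1 CPM in double-substitution, 24.8 CPM in ATXN1[82Q] and 26.4 CPM in wild-type libraries, and neither Pet100, Chtf18 nor Igsf5 was called in any comparison. With the counts of Pet100 added to those of Pcp2, the log2 fold change was -0.67 in ATXN1[82Q] and -0.06 with the double-substitution form, each against wild type. With Chtf18 added to Gng13 these values were -2.17 and -0.78, and with Igsf5 added to Pcp4 they were -1.12 and -0.50.

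Levels of different genes were compared per kilobase of exon. In wild-type libraries Pcp4 stood highest at 512 CPM per kb, followed by Gng13 at 237, Ppp1r17 at 182, Pcp2 at 57.9 and Pcp4l1 at 39.4 CPM per kb, and no 2 neighbours in this order overlapped. In ATXN1[82Q] libraries the order was Pcp4 at 235 CPM per kb, Ppp1r17 at 87.1, Gng13 at 49.9, Pcp4l1 at 49.8 and Pcp2 at 31.8 CPM per kb. There Gng13 and Pcp4l1 overlapped, as did Pcp4l1 and Pcp2. In double-substitution libraries Pcp4 had 362 CPM per kb, Ppp1r17 143, Gng13 137, Pcp2 56.4 and Pcp4l1 41.0 CPM per kb. Ppp1r17 and Gng13 overlapped there, and so did Pcp2 and Pcp4l1. On a length that counts only exons free of other genes, Gng13 stood above Ppp1r17 in all 3 genotypes, with their libraries overlapping in ATXN1[82Q].

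Ratios of 2 members within a library do not depend on the scaling between libraries, and they showed that the members did not change in step. All 10 pairs were compared in 3 comparisons by 2-sided exact permutation tests over libraries, and 25 of the 30 had an adjusted p under 0.05. Pairs share genes and comparisons share libraries, so these tests are not independent, and 1 gene that moves alone can change several ratios. The smallest p that 5 against 5 libraries allow is 0.00794, which became 0.0125 after adjustment over these 30 tests. In ATXN1[82Q], Gng13 lost ground to each of the other 4. In ATXN1[82Q] against wild type the log2 ratio of Pcp2 to Gng13 differed by 1.39, that of Pcp4 to Gng13 by 1.13 and that of Ppp1r17 to Gng13 by 1.19 (exact permutation test, adjusted p = 0.0125 each). With the double-substitution form against wild type, the ratio of Pcp2 to Gng13 differed by 0.79 and that of Pcp2 to Pcp4 by 0.47 (exact permutation test, adjusted p = 0.0125 each). In ATXN1[82Q] against wild type the log2 ratio of Pcp4 to Ppp1r17 differed least of the 10, by -0.05 (exact permutation test, adjusted p = 0.548). With the double-substitution form against wild type the ratio of Pcp2 to Pcp4l1 differed least, by -0.10 (exact permutation test, adjusted p = 0.509), and that of Pcp4 to Ppp1r17 differed by -0.15 (exact permutation test, adjusted p = 0.0549). The related pair Pcp4 and Pcp4l1 parted most clearly in ATXN1[82Q], where the log2 ratio of Pcp4 to Pcp4l1 differed by -1.43 from wild type, a factor of 2.69 (exact permutation test, adjusted p = 0.0125). Pcp4l1 also went with transcripts of neighbouring tissue, as described below, and its ratios were not adjusted for them.

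Other Purkinje cell markers fell in the same mice. Of 21 such markers, which leave out the 5 members, 20 were called lower in ATXN1[82Q] than in wild type, with a median log2 fold change of -0.93, against 0.01 over all genes. Rgs8, a regulator of G-protein signalling, averaged 272 ± 14.4 CPM in ATXN1[82Q] and 1287 ± 93.4 CPM in wild type (SD, n = 5), and Foxp2, named after its value was seen, was the 1 marker not called, at a log2 fold change of 0.08. Of the 21, 13 were called lower with the double-substitution form than in wild type, with a median log2 fold change of -0.34. Skor2 and Plcb4 shared the pattern of Pcp2. Against wild type they were called lower in ATXN1[82Q], at log2 fold changes of -0.67 and -0.43. With the double-substitution form they were not called, at -0.01 and 0.03. Rgs8 averaged 809 ± 195 CPM with the double-substitution form and 1287 ± 93.4 CPM in wild type (SD, n = 5). Against ATXN1[82Q] 20 of the 21 were called higher with the double-substitution form, with a median log2 fold change of 0.66.

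Set against the mean of these 21 markers in the same library, each member took its own place. Of 15 exact permutation tests, 2-sided and over libraries, 9 had an adjusted p under 0.05, and the smallest adjusted p obtained was 0.017. Gng13 fell further than the marker mean, by 1.28 on the log2 scale in ATXN1[82Q] against wild type (exact permutation test, adjusted p = 0.017). It did so by 0.53 with the double-substitution form against wild type (exact permutation test, adjusted p = 0.017). Rgs8, one of the 21 markers, had log2 fold changes of -2.24 and -0.67 in these comparisons, against -2.25 and -0.79 for Gng13. Single markers were not tested against the marker mean. Ppp1r17 moved with the marker mean to within 0.09 on the log2 scale in all 3 comparisons, and none of its 3 tests passed (adjusted p from 0.109 to 0.341). Pcp2 stood 0.27 above the marker mean with the double-substitution form against wild type (exact permutation test, adjusted p = 0.017). It stood 0.11 above in ATXN1[82Q] against wild type (exact permutation test, adjusted p = 0.108). Pcp4 lay 0.20 below the marker mean on the log2 scale, a difference of -0.20, with the double-substitution form against wild type (exact permutation test, adjusted p = 0.017). In ATXN1[82Q] against wild type the difference for Pcp4 was -0.15 (exact permutation test, adjusted p = 0.0298), a call lost when any 1 of 6 libraries was left out. Pcp4l1 stood 1.28 above the marker mean in ATXN1[82Q] against wild type (exact permutation test, adjusted p = 0.017), without adjustment for the neighbouring tissue described below.

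**Figure D3:**
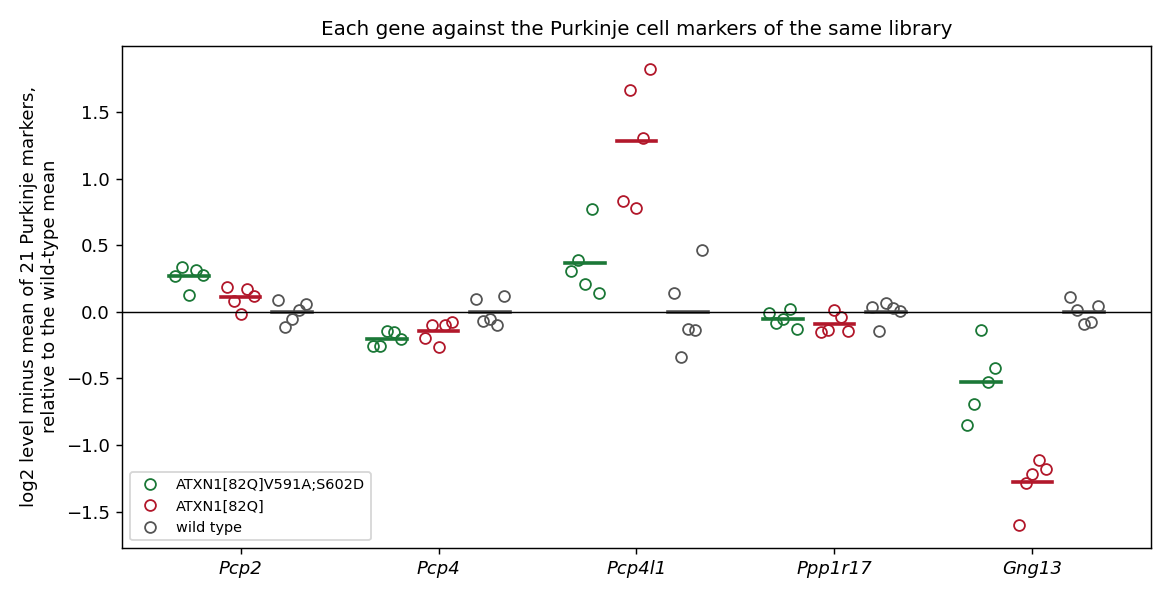
Log2 level of each gene minus the mean of the Purkinje markers in the same library (vertical axis), relative to the wild-type mean. Circles are libraries and bars are genotype means; Gng13 lies 1.28 lower in ATXN1[82Q] than in wild type, Pcp4l1 lies 1.28 higher, and Ppp1r17 stays near 0.

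Within the double-substitution genotype, library 1 was lowest for all 5 members and for the mean of the Purkinje markers. Library 3 was highest for Pcp4, Ppp1r17, Gng13 and the marker mean, while library 5 was highest for Pcp2 and library 4 for Pcp4l1. Gng13 differed 2.09-fold between these extremes, at 74.0 CPM in library 1 and 154 CPM in library 3. No library of ATXN1[82Q] or of wild type was lowest, or highest, for all 5 members.

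The level of Pcp4l1 went with transcripts of neighbouring tissue. Ttr encodes transthyretin, made in the choroid plexus, and it was above 1000 CPM in 8 libraries and below 100 CPM in 7. In double-substitution libraries Pcp4l1 stood at 64.8 to 80.0 CPM where Ttr was high and at 55.2 to 57.1 CPM where it was low. In ATXN1[82Q] libraries these ranges were 77.7 to 105 CPM and 54.4 to 58.9 CPM, and in wild-type libraries 65.7 to 80.3 CPM and 51.2 to 57.1 CPM. In every genotype all high-Ttr libraries lay above all low-Ttr libraries for Pcp4l1. The library highest in Pcp4l1 was in each genotype also highest in the summed choroid plexus markers, with 3847 CPM in double-substitution library 4, 5261 CPM in ATXN1[82Q] library 5 and 4104 CPM in wild-type library 5. Summed over 12 choroid plexus markers, the libraries ranged from 46.0 to 3847 CPM with the double-substitution form, from 41.1 to 5261 CPM in ATXN1[82Q] and from 25.9 to 4104 CPM in wild type. Summed over 15 brainstem neuron markers, of which 6 passed the count filter and none was at 0 in all libraries, they ranged from 3.02 to 7.28 CPM, from 3.35 to 29.7 CPM and from 3.73 to 6.97 CPM in the same order of genotypes. With Ttr as a covariate the log2 fold change of Pcp4l1 in ATXN1[82Q] against wild type was 0.17, against 0.34 without it. With the mean of the brainstem markers as a covariate it was 0.02, and in the low-Ttr libraries alone it was 0.04. Of the 6 brainstem markers tested, 4 were called higher in ATXN1[82Q] than in wild type, with a median log2 fold change of 1.54. With the double-substitution form 2 were called lower than in ATXN1[82Q]. The brainstem covariate thus differed by genotype, and a fit with it can also take out part of a genotype difference. The low-Ttr libraries number 2 with the double-substitution form, 2 in ATXN1[82Q] and 3 in wild type.

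**Figure D4:**
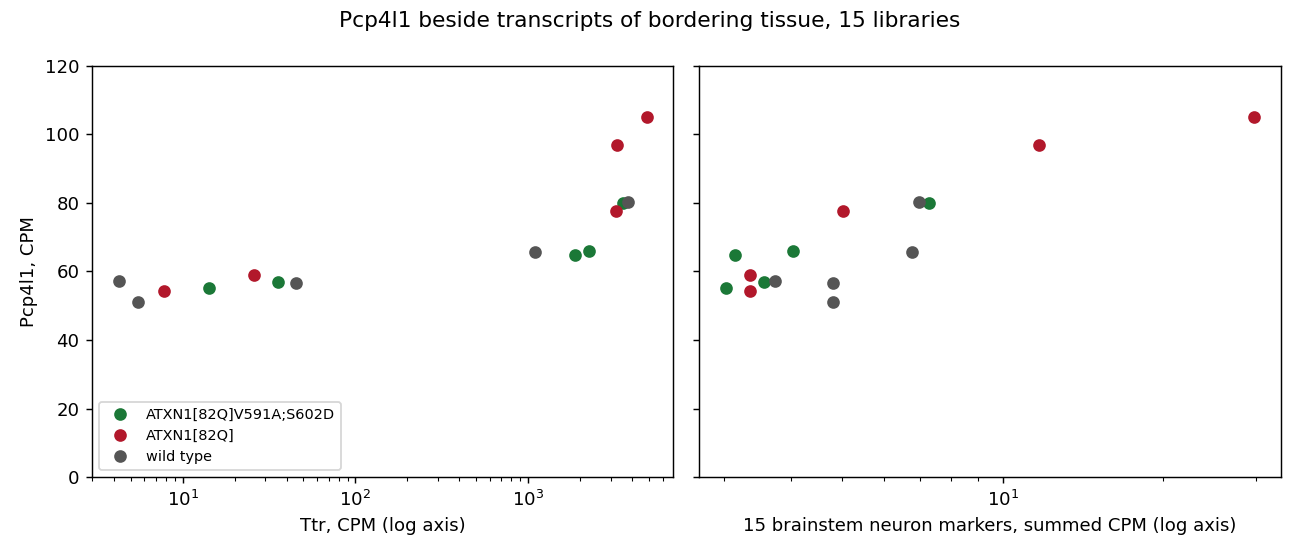
Pcp4l1 in CPM (vertical axes, from 0) against Ttr (left) and against the sum of brainstem neuron markers (right), both in CPM on log axes, one point per library, coloured by genotype. The 8 libraries with Ttr above 1000 CPM have 64.8 to 105 CPM of Pcp4l1, and the 7 with Ttr under 100 CPM have 51.2 to 58.9 CPM.

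For the other 4 members the high-Ttr and low-Ttr libraries of a genotype overlapped, except for Pcp4 in wild type, at 541 to 544 CPM where Ttr was high and 502 to 527 CPM where it was low. Their log2 fold changes were also computed in the low-Ttr libraries alone. For Gng13 that value was -2.32 in ATXN1[82Q] against wild type and -0.96 with the double-substitution form against wild type. For Pcp4 the values were -1.12 and -0.56, for Ppp1r17 -1.02 and -0.46, and for Pcp2 -0.83 and -0.08.

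Genes related to the 5 proteins by pathway or family were followed in 4 lists, and many of them do not encode binding partners. In each list called genes ran in both directions in ATXN1[82Q] against wild type. With the double-substitution form against wild type, 3 of the 4 lists held called genes, all of them lower. Across all genes tested, 16.6% were called higher in ATXN1[82Q] than in wild type. Around Pcp4, 13 of 20 genes for calmodulin and its binding proteins were called lower in ATXN1[82Q] than in wild type and 3 higher, with a median log2 fold change of -0.24. Itpka, a calmodulin-activated kinase of IP3, averaged 20.4 ± 3.04 CPM in ATXN1[82Q] and 67.1 ± 2.26 CPM in wild type (log2 fold change -1.72, adjusted p = 4.13e-08). Camk2a, a calcium/calmodulin-dependent kinase, fell by 1.26 on the log2 scale (log2 fold change -1.26), and all 3 calmodulin genes fell, Calm2 the most of them at -0.52. The calmodulin-dependent phosphodiesterases Pde1a and Pde1b were higher, at log2 fold changes of 0.74 and 0.61, as was the myosin kinase Mylk at 0.37. Of the 20, 2 were called with the double-substitution form against wild type, Itpka at -0.66 and Calm2 at -0.23.

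Around Ppp1r17, 9 of 17 genes of the cGMP pathway and of phosphatases were called lower in ATXN1[82Q] than in wild type and 1 higher, with a median log2 fold change of -0.10. Prkg1, the kinase that phosphorylates Ppp1r17, averaged 21.8 ± 1.87 CPM in ATXN1[82Q] and 38.2 ± 5.16 CPM in wild type (log2 fold change -0.81, adjusted p = 1.02e-06). The cGMP-degrading phosphodiesterases Pde5a and Pde9a were lower too, at log2 fold changes of -1.14 and -0.86. Ppp1r1a, another phosphatase inhibitor, was the 1 gene called higher, at 0.47. The inhibitor Ppp1r1b was called lower, at -0.47, and the inhibitor Ppp1r2 was not called, at -0.0026. Of the 17, 4 were called lower with the double-substitution form than in wild type and none higher: Pde5a at -0.39, Pde9a at -0.38, Prkg1 at -0.37 and Pde2a at -0.29. Catalytic phosphatase subunits moved little in ATXN1[82Q] against wild type. Ppp1ca at -0.09, Ppp1cb at -0.11, Ppp2ca at -0.10 and Ppp2cb at -0.13 are among the 9 called lower. Ppp1cc was not called, at 0.0033.

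Around Pcp2, the 18 genes for G-protein alpha subunits and other GoLoco proteins split, with 4 called lower and 7 higher in ATXN1[82Q] against wild type and a median log2 fold change of -0.0037. Gnai1 and Gnao1, inhibitory alpha subunits of the kind that Pcp2 binds, were among those lower, at log2 fold changes of -0.48 and -0.43. Of the other inhibitory subunits, Gnai2 was called higher, at 0.15, and Gnai3 was not called, at -0.0092. The GoLoco genes Gpsm3, Rgs12 and Gpsm2 were higher, at 0.54, 0.41 and 0.32. They averaged 2.64, 15.1 and 8.06 CPM in ATXN1[82Q]. The GoLoco genes Rap1gap, Gpsm1 and Rgs14 were not called, at 0.0019, -0.04 and 0.52. These averaged 315, 129 and 0.33 CPM in ATXN1[82Q]. Gnai1 was the 1 gene of this list called with the double-substitution form against wild type, at -0.22.

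Around Gng13, 6 of 15 other beta and gamma subunit genes were called higher in ATXN1[82Q] than in wild type and 2 lower, with a median log2 fold change of 0.17. Gng4 averaged 2.49 ± 1.15 CPM in ATXN1[82Q] and 1.05 ± 0.33 CPM in wild type (log2 fold change 1.24, adjusted p = 0.00283), and Gngt2, Gng11 and Gng5 were higher by 0.72, 0.39 and 0.29 on the log2 scale. The 2 called lower were Gng2 at -0.23 and Gnb1 at -0.08. None of the 15 was called with the double-substitution form against wild type by edgeR, 0 had an unadjusted p under 0.05 and DESeq2 called 0. All 14 microglial markers were called higher in ATXN1[82Q] than in wild type, at a median log2 fold change of 0.98. Their part in the higher members of these lists was not tested. Against ATXN1[82Q], the double-substitution form had 13 higher and 3 lower of the calmodulin genes, 5 higher and 2 lower of the cGMP and phosphatase genes, 5 higher and 5 lower of the alpha subunit and GoLoco genes, and 1 higher and 7 lower of the beta and gamma genes, where 13.5% of all genes were called lower.

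**Figure D5:**
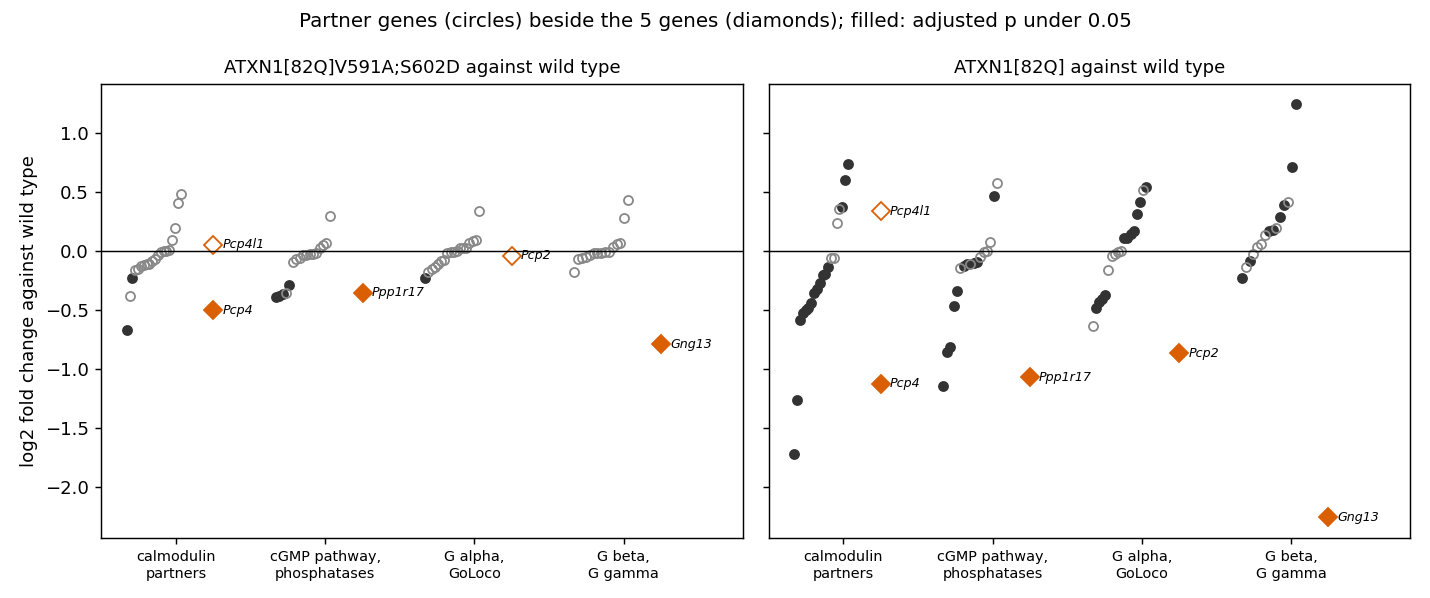
Log2 fold changes against wild type (vertical axis) of the genes in 4 lists of related genes (circles) beside the 5 members (diamonds). The double-substitution form is on the left and ATXN1[82Q] on the right. Filled symbols have an adjusted p under 0.05; in ATXN1[82Q] 13 of 20 calmodulin genes were called lower, and Gng13 lies at -2.25, below every beta and gamma subunit gene shown.

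The genes whose pattern over the 15 libraries lay nearest to each member were found by the root mean square difference in log2 CPM, centred on the wild-type mean, among 9186 genes whose log2 CPM averaged 4 or more. Nearest to Gng13 was Rgs8, at 0.15 log2 units, followed by the collagen genes Col5a1 and Col18a1 at 0.20 and 0.22, Tspan11 at 0.26 and Doc2b at 0.29. Nearest to Ppp1r17 were Inpp5a, an IP3 phosphatase, at 0.06, and Ywhah, Zdhhc14, Kcnip1 and Rnf19b at 0.08 to 0.10. Pcp4 lay nearest to Sbk1 at 0.07, then to Creg1, Rmdn3, Grik1 and Fam21 at 0.08 to 0.09. Nearest to Pcp2 was Slc1a6, the Purkinje cell glutamate transporter, at 0.13, followed by Ptprr, Casq2 and Sema7a at 0.13. Relative to wild type these 4 stood at -0.19 to -0.15 on the log2 scale with the double-substitution form, against -0.04 for Pcp2, and none of them was called there. Pcp4l1 lay nearest to Prps2 at 0.12, then to Cd59a, Elovl7, Vat1l and Lama5 at 0.13 to 0.14, none of which was called in any comparison.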

How the data were processed

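Cerebellar RNA of 15 libraries was analysed from the authors' gene counts. Per the labels' protocols, cDNA was made from 10 ng of total RNA with poly(A) and random priming and sheared to inserts of 400 bp. Per the submitters' processing notes, the authors used STAR 2.5.3a, HTSeq and mm10, and DESeq2 is named. The deposited values are whole-number counts, not normalised, while strand setting, counting mode and annotation version are not stated in the labels or notes. Reads in no gene were 16.8% to 18.2% and ambiguous reads 1.18% to 1.25% of each library, and both stayed out of library sizes. Intervals reflect variation among libraries only, and PCR copies were not marked by molecular identifiers.

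Groups came from the genotype labels. Genes were tested in R 4.3.3 with edgeR 4.0.16 (quasi-likelihood F-test, all 15 libraries in one fit, TMM factors 0.968 to 1.04, filterByExpr with a minimum count of 10, Benjamini-Hochberg over 15843 genes). Log2 CPM used a prior count of 2. Ratios were compared by exact permutation tests in scipy 1.17.1. Gene models came from GENCODE M21 (GRCm38), the build mm10, and promoters from RefSeq. The script was tested on simulated data.

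The members and gene lists were chosen with earlier results of these data known. Named genes were the members, genes overlapping their exons, Atxn1, Ttr and Xist. Also named were the 5 genes nearest to each member, and up to 4 called genes per list and comparison with the largest fold changes. Other list genes (Calm2 in ATXN1[82Q], Mylk, Foxp2, Skor2, Plcb4, Gnai2, Gnai3, Gng2 and Gnb1) were picked once their values were known. So were Ppp1r1b, Ppp1r2, Ppp1ca, Ppp1cb, Ppp1cc, Ppp2ca, Ppp2cb, Gpsm1, Rgs14, Rap1gap and, in ATXN1[82Q], Gpsm2. A few genes that this rule names are not reported here. The marker lists not described in the text gave, as genes called lower and higher in ATXN1[82Q] against wild type, 12 and 0 of 16 for granule cells, 0 and 5 of 9 for interneurons, 2 and 5 of 13 for Bergmann glia and astrocytes, 0 and 6 of 12 for oligodendrocytes and 0 and 3 of 12 for endothelial and mural cells, and with the double-substitution form against wild type 1 interneuron marker called lower and no other by edgeR. At an unadjusted p under 0.05 there were 2 lower and 2 higher granule cell markers, 1 lower and 2 higher Bergmann glia or astrocyte markers, 0 oligodendrocyte markers and 1 higher endothelial or mural marker, and DESeq2 also called 1 granule cell marker lower and 1 Bergmann glia or astrocyte marker higher. Over 30 pairs of libraries within genotypes, chi-square per degree of freedom was 5.7 to 40.6, so none was a duplicate. Among 15 pairs of libraries with the same number, 4 had a correlation of deviations above 0.1 (median -0.109), so the numbers were not treated as pairs. Alternatives were RLE factors, DESeq2 1.42.0, no count filter, only the genotypes compared, a replicate block, each library left out, Ttr, Xist or brainstem markers as a covariate, low-Ttr libraries alone and counts of Pcp2 summed with Pet100. The other 2 sums and leaving out ATXN1[82Q] libraries 2 and 5 were added after seeing the data.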

Additional observations from a re-analysis of the deposited data

Results flagged for a closer look

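Ppp1r17 in double-substitution library 3 stood at 287 CPM, apart from the other 4 libraries of that genotype, of which the nearest had 247 CPM. The gap was 0.717 of the whole range, just past Dixon's limit of 0.71 for 5 samples. It was the 1 value of 15 groups of libraries to do so, and chance gives about 1 in 20. The same library was also highest in its genotype for Pcp4, Gng13 and the mean of the Purkinje markers. Without it the log2 fold change of Ppp1r17 against wild type was -0.41 (adjusted p = 0.000118).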

How the results depend on the processing

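Pcp2, Pcp4, Ppp1r17 and Gng13 kept their direction and their side of the threshold in all 3 comparisons under every alternative run, 25 or 26 for each. The count of members called lower stayed at 4 in ATXN1[82Q] against wild type and at 3 with the double-substitution form against wild type, and 4 stayed called higher with the double-substitution form against ATXN1[82Q]. With the replicate block the log2 fold change of Gng13 was -2.27 in ATXN1[82Q] against wild type, -0.83 with the double-substitution form against wild type and 1.44 against ATXN1[82Q], and the block changed no call of a member. Pcp4l1 depended on the setting, and the cause was not tested. In ATXN1[82Q] against wild type it ranged from 0.21 to 0.45 with single libraries left out and was called higher without ATXN1[82Q] library 3 (0.44, adjusted p = 0.0406) or wild-type library 5 (0.45, adjusted p = 0.0473), which took the members called higher to 1, against 0 otherwise. With the double-substitution form against wild type it ranged from -0.035 to 0.16, was below 0 without double-substitution library 4 (-0.035) or wild-type library 2 (-0.0086), and was -0.080 with Ttr as a covariate. With the double-substitution form against ATXN1[82Q], Pcp4l1 was called lower with Ttr as a covariate (-0.25, adjusted p = 0.0232, 1 member called lower) and was above 0 with brainstem markers as a covariate (0.043) and without ATXN1[82Q] libraries 2 and 5 (0.025, chosen after seeing the data). With 4 against 5 libraries no exact p below 0.0159 can be had, so lost calls of ratios there say little about stability. With single libraries left out, the difference in log2 ratio between double-substitution and wild-type libraries ran from 0.26 to 0.41 for Pcp4 over Gng13, from 0.39 to 0.57 for Ppp1r17 over Gng13 and from 0.33 to 0.53 for Pcp4l1 over Ppp1r17. The call was kept in only 3, 3 and 1 of 10 such runs, in that order. The difference for Pcp2 over Ppp1r17 in ATXN1[82Q] against wild type ran from 0.17 to 0.26, with the call kept in 1 of 10. That of Pcp4 over Ppp1r17 ran from -0.085 to 0.0023 in ATXN1[82Q] against wild type and from -0.15 to -0.068 with the double-substitution form against ATXN1[82Q], where it was called without ATXN1[82Q] library 3. Against the Purkinje markers, Pcp2 ran from 0.13 to 0.19 with the double-substitution form against ATXN1[82Q] and kept its call in 1 of 10 runs. Pcp4 ran from -0.17 to -0.12 in ATXN1[82Q] against wild type and kept its call in 4 of 10. Without wild-type library 2, calls were gained for Ppp1r17, whose values were -0.13 to -0.076 in ATXN1[82Q] against wild type, and -0.085 to -0.030 for the double-substitution form. One was gained for Pcp4l1, from 0.26 to 0.48 with the double-substitution form against wild type, without wild-type library 5. Over all genes, 223 were called with the double-substitution form against wild type, 190 lower and 33 higher. DESeq2 called 429, with 321 lower and 108 higher, and of the 20 calmodulin genes it called 6 lower, against 2 by edgeR. Over all genes, 136, 142 and 143 were called without double-substitution library 2, double-substitution library 4 or wild-type library 2. In low-Ttr libraries alone 3234 genes were called in ATXN1[82Q] against wild type, against 4993 in all libraries, and 1512 with the double-substitution form against ATXN1[82Q], against 4454. With brainstem markers as a covariate 2931 were called in that last comparison.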
